A study of Mus musculus with 6 samples.

Results

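Genes for 9 amino acid carriers of the plasma membrane were followed in mouse germinal vesicle (GV) oocytes with and without the Polycomb gene Rnf2. They were taken by symbol: the Slc1 family members Slc1a1 to Slc1a5, the glycine transporter gene Slc6a9, and the neutral amino acid transporter genes Slc7a5, Slc38a1 and Slc38a2. All 9 were found among the 24421 genes of the count table. The DKO group was Ring1 -/-; Rnf2 f/f; Zp3-cre, and the SKO group was Ring1 -/-; Rnf2 f/f without the transgene, with 3 libraries in each. Ring1 and Rnf2 encode the catalytic ubiquitin ligases of Polycomb repressive complex 1, a chromatin complex that keeps developmental genes silent. Ring1 was absent from both groups, so the comparison is of an oocyte deletion of Rnf2 on a Ring1-null background. Zp3-cre is driven by a zona pellucida gene promoter active in growing oocytes, and because no group had the transgene with intact Rnf2, cre and deletion cannot be told apart. Each library came from 15 pooled GV oocytes of a single female, about 3 months old, on a mixed FVB, 129/Sv and C57BL/6J background. The genes were chosen by symbol, with no threshold on a measured value, but the set was proposed with their fold changes and calls in this same DKO and SKO contrast in view. Those values therefore count as selected on. The fold changes and calls of the 9 genes are given as a description and no independent evidence.

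Transporters of the Slc1 family move their substrate with the sodium gradient. Slc1a1, Slc1a2 and Slc1a3 carry glutamate and aspartate and are best known for clearing glutamate at brain synapses, where Slc1a2 and Slc1a3 are the main astrocyte forms. Slc1a4 and Slc1a5 exchange small neutral amino acids such as alanine, serine and glutamine. In mouse oocytes and early embryos the Slc6a9 protein takes up glycine, which these cells use as an osmolyte to control their volume. The Slc7a5 protein exchanges large neutral amino acids and works only when paired with the heavy chain encoded by Slc3a2. Slc38a1 and Slc38a2 bring in glutamine, alanine and other small neutral amino acids, and Slc38a2 is a known target of the amino acid response factor Atf4 in cultured mammalian cells.

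Total counts ranged from 15521975 to 26652745 per library, and 3 counts corresponded to 0.116 to 0.171 CPM (read counts relative to the TMM-scaled library size). Rnf2 had 56.3, 30.7 and 22.9 CPM in the DKO libraries, against 203, 180 and 188 CPM in the SKO libraries, so the targeted transcript was lower in every DKO library. Oocyte markers were abundant in all libraries, with summed levels of 12637 to 15965 CPM over 14 genes in DKO and 20100 to 21229 CPM in SKO. Of 14 tested, 1 was called higher and 6 lower in DKO, against 17.3% higher and 7.41% lower over all tested genes. All but Ddx4, Figla and Oog1 lie above 100 CPM in SKO, where 2.23% of all tested genes were called higher and 18.8% lower. The 18 granulosa and cumulus markers summed to 187 to 219 CPM in DKO and 110 to 137 CPM in SKO. Of 13 tested, 4 were called higher and 1 lower in DKO (edgeR quasi-likelihood test, adjusted p under 0.05), against 17.3% higher and 7.41% lower over all tested genes. Their most abundant members were Nr5a2, Cyp19a1 and Fshr. Fshr had 30.7 ± 2.54 CPM in DKO and 0.506 ± 0.0397 CPM in SKO (mean ± SD of 3 mice a group). Nr5a2 was called higher, at 117 CPM in DKO and 79.2 CPM in SKO (edgeR adjusted p = 0.0429). Cyp19a1 was the one called lower, at 17 CPM in DKO and 30 CPM in SKO (edgeR adjusted p = 0.0274). Ptx3 was at 0 counts in all 6 libraries, and the cumulus glutamine transporter gene Slc38a3 had 6 counts in DKO replicate 3 and 0 in every other library. Theca, stroma and endothelium markers (17 genes) summed to 155 to 168 CPM in DKO and 133 to 179 CPM in SKO, and Emcn was at 0 in all 6. Of 12 tested, 6 were called higher and 1 lower in DKO, with a median log2 fold change (DKO over SKO) of 1.33. Pecam1, Tek and Cyp11a1 were the most abundant of them. Pecam1 was the one called lower, at 61 CPM in DKO and 110 CPM in SKO, a call lost without SKO replicate 3 (edgeR adjusted p = 0.0512). Cyp11a1 was called higher, at 36.9 CPM in DKO and 14.6 CPM in SKO, as were Col1a1, Dcn, Lum, Pdgfra and Kdr, which were picked after their values were seen. Lum had 0.83 CPM in DKO and 0 CPM in SKO, and Col1a1 1.35 and 0.0696 CPM. Col1a1, Dcn, Lum and Pdgfra lie below 1 CPM in SKO, where 45.9% of all tested genes were called higher. The 5 not called were Tek, Star, Hsd3b1, Acta2 and Tagln. Below the filter, Col3a1 had 19 counts in DKO and 0 in SKO, and Col1a2 0 in DKO and 4 in SKO. Blood and immune markers (11 genes) summed to 6.76 to 10.4 CPM in DKO and 2.34 to 4.67 CPM in SKO, with Cd68 and Alas2 among the more abundant and the globin genes Hba-a1 and Hbb-bs at 0. The part of other cell types in the results below was not tested. In such pooled material fewer cells of a type and less RNA per cell cannot be told apart.

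The glutamate transporter genes Slc1a1 and Slc1a2 and the neutral amino acid transporter genes Slc1a4, Slc1a5 and Slc38a2 were higher in DKO oocytes. The 2 most abundant genes, Slc6a9 and Slc7a5, and the low Slc38a1 were not called. Of the 8 genes that passed the filter on low counts, 5 were called higher and 0 lower (edgeR quasi-likelihood test, adjusted p under 0.05 over all genes tested), and the adjusted p-values of those 5 ran over 3.42e-06 to 0.0113. Over all 14845 tested genes 17.3% were called higher and 7.41% lower. The median log2 fold change (DKO over SKO throughout) was 2.85 over the 8 tested genes and 0.04 over all tested genes. DESeq2 and limma voom also called 0 lower, and 0 were lower at an unadjusted edgeR p under 0.05. The CPM of the groups did not overlap for 6 of the 8, all higher in DKO. Over all tested genes the groups did not overlap in 44.3%, with 24.7% higher and 19.6% lower in DKO. Slc1a2 and Slc1a4 reached 10 counts in no SKO library and Slc1a5 in 1, and Slc38a1 and Slc38a2 in 2. The filter asks for 3 libraries, so these 5 needed their DKO libraries to enter the test. Among the 2494 tested genes below 1 CPM in SKO, 45.9% were called higher and 0.16% lower. Slc1a2, Slc1a4, Slc1a5, Slc38a1 and Slc38a2 all lie in that range. For these 5 the absence of lower calls, with any of the tools, therefore says little. Of the 5567 genes at 10 to 100 CPM in SKO, where Slc1a1 and Slc7a5 lie, 9.18% were called higher and 9.66% lower.

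**Figure D1:**
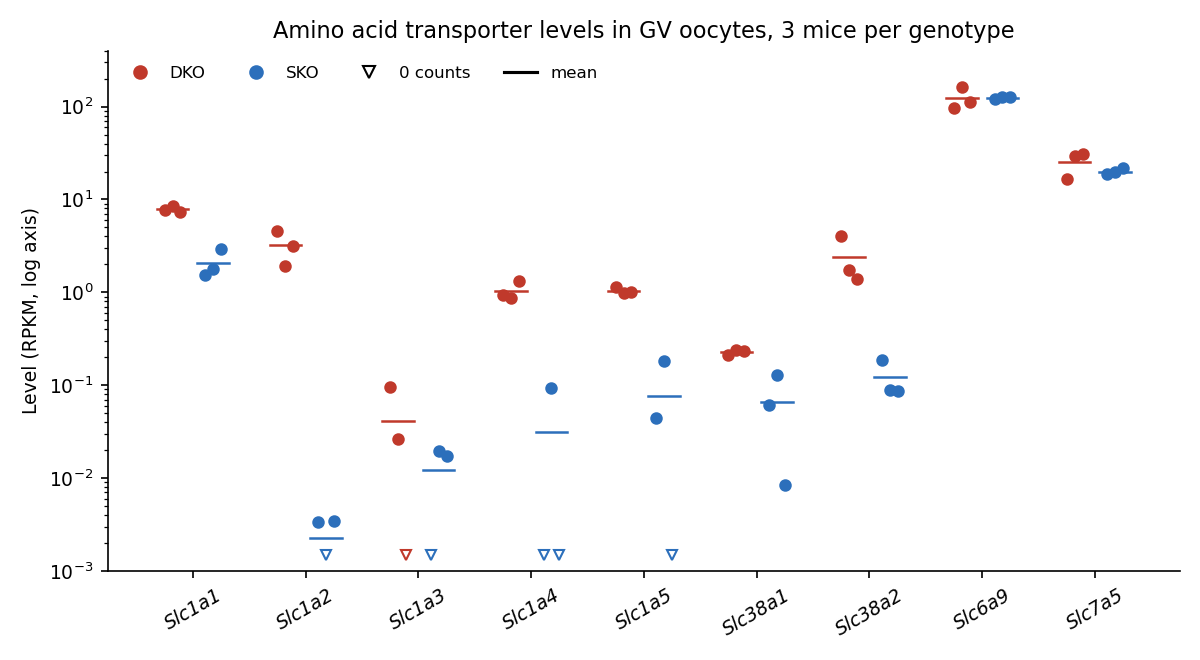
Level of each of the 9 genes in every library, as RPKM (CPM per kilobase of gene length) on a log axis, with DKO in red left of SKO in blue, lines at the means over 3 mice and open triangles for libraries with 0 counts. Slc6a9 lies near 124 RPKM in DKO and 125 RPKM in SKO, while Slc1a2 has 1.9 to 4.62 RPKM in DKO and at most 0.00341 RPKM in SKO.

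Promoter windows from RefSeq (GRCm38.p6, 250 bases before to 50 after a start) existed for 6 of the 9 genes, and the CG dinucleotides in them were counted, since CpG-rich promoters are where Polycomb complexes bind in mammals. Windows of 3 genes called higher and the first window of Slc6a9, which was not called, are shown for comparison, with each CG in capitals. They are at chr19:28834885-28835184 (plus strand) for Slc1a1, chr11:20332664-20332963 (minus strand) for Slc1a4, chr15:96699679-96699978 (minus strand) for Slc38a2 and chr4:117835008-117835307 (plus strand) for Slc6a9.
Slc1a1: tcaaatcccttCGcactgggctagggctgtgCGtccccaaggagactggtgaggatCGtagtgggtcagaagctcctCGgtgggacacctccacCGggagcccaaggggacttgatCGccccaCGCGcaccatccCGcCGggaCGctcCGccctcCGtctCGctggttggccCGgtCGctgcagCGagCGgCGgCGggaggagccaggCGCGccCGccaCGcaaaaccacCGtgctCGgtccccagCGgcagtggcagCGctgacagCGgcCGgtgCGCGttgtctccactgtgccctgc
Slc1a4: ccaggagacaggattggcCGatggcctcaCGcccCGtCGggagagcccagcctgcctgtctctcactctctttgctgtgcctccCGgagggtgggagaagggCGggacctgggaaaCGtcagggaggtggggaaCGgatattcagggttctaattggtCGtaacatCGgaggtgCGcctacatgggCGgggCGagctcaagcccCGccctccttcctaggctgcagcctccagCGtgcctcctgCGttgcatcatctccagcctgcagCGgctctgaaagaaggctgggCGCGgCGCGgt
Slc38a2: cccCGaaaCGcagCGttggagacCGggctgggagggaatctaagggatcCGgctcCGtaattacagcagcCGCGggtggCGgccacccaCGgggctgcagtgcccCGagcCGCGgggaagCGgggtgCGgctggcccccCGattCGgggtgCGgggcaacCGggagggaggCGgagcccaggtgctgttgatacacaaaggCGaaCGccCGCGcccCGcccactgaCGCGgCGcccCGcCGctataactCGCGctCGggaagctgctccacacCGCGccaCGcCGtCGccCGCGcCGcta
Slc6a9: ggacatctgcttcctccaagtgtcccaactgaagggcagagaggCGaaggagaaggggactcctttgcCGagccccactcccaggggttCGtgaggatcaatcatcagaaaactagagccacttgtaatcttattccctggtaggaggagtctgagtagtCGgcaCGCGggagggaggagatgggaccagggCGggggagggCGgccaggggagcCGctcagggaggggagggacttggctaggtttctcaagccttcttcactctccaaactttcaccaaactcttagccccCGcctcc
Slc38a2 held 41 CG and Slc1a1 32, more than 96.5% and 90.5% of the 32851 windows in the table, and Slc1a4 held 21. The 3 annotated starts of Slc6a9 held 10, 14 and 8. Slc1a3, near the detection limit in both groups, held 3. The one window given for Slc1a2 held 1, but it lies 48199 bases inside the gene and says nothing of the outermost start. The median was 7 CG over all windows, 19 over windows of all tested genes, 17 over those of genes called higher and 18 over those of genes called lower. The percentages above are ranks among all windows, and ranks among windows of tested genes were not computed. GGGCGG, the GC box, was found on either strand in the windows of Slc1a1, Slc1a3, Slc1a4 and Slc38a2 and in the first of Slc6a9, against 35.7% of all windows. TATAAA was found only in that of Slc1a3, against 13.6% of all windows. TGATGCAA, the core of an amino acid response element, was found only in that of Slc1a4, against 0.895% of all windows. The windows end 50 bases after a start, and sequence further inside the genes, Slc38a2 among them, was not searched. Both strands were searched, and each GGGCGG holds one of the CG counted above.

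Slc1a1, the neuronal and epithelial glutamate transporter gene (chromosome 19, 28835135 to 28913960, GRCm38), was the one glutamate transporter with a clear level in SKO oocytes. It had 45.1, 50.5 and 42.7 CPM in the DKO libraries, against 9.06, 10.4 and 17.1 CPM in the SKO libraries. All DKO libraries lay above all SKO libraries, and SKO replicate 3 was the highest of its group. The means were 46.1 ± 4.02 CPM in DKO and 12.2 ± 4.33 CPM in SKO (mean ± SD, n = 3 each), a log2 fold change of 1.92 (SE 0.27, 95% interval 1.32 to 2.52), or 3.78-fold.

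Slc1a2, the glial glutamate transporter gene (chromosome 2, 102658239 to 102790784), was close to undetected in SKO oocytes. Its counts were 979, 487 and 971 in the DKO libraries, against 1, 0 and 1 in the SKO libraries. In DKO this was 55.8, 22.9 and 37.7 CPM, with DKO replicate 2 lowest, and in SKO every library stayed below the level of 3 counts. The ratio of summed counts, 2437 in DKO and 2 in SKO, was 1337 (95% interval 370 to 11048, counting error only). The fitted log2 fold change was 10.17 (SE 0.60), a value that depends on the prior count where a group has so few reads. A noncoding gene, Gm13872, lies within its span on the opposite strand and held 10 counts over the 6 libraries.

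Slc1a3, the other astrocyte glutamate transporter gene (chromosome 15, 8634124 to 8710807), stayed near the detection limit. It had 12, 4 and 0 counts in the DKO libraries, against 0, 3 and 3 in the SKO libraries. The groups overlapped, and the gene was below the filter and not tested. With no filter its log2 fold change was 1.61 (SE 1.53, edgeR adjusted p = 0.505).

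Summed per length, the 3 glutamate transporter genes had 12.4, 10.5 and 10.4 RPKM in the DKO libraries, against 1.54, 1.79 and 2.93 RPKM in the SKO libraries. The DKO sums lay within a narrower relative range than Slc1a2 alone. Slc1a2 made up 4.62, 1.9 and 3.12 RPKM of the DKO sums, and Slc1a1 made up 7.66, 8.59 and 7.26 RPKM. In SKO nearly the whole sum was Slc1a1, at 1.54, 1.77 and 2.91 RPKM.

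The neutral amino acid exchangers of the family, Slc1a4 (chromosome 11, 20302180 to 20332713) and Slc1a5 (chromosome 7, 16781334 to 16798274), were low in both groups and higher in DKO. Slc1a4 had 65, 72 and 132 counts in the DKO libraries, against 0, 8 and 0 in the SKO libraries. All of its SKO counts came from SKO replicate 2. Its level was 4.07 ± 0.928 CPM in DKO and 0.123 ± 0.213 CPM in SKO (mean ± SD, n = 3 each), a log2 fold change of 5.06 (SE 1.0, interval 2.84 to 7.28). Without SKO replicate 2 the SKO group held 0 counts and the fitted value was 9.53, which is no bound on the fold. It was 4.45 without SKO replicate 1 and 4.47 without SKO replicate 3. Slc1a5 had 55, 58 and 72 counts in the DKO libraries, against 3, 11 and 0 in the SKO libraries. The 2.88 ± 0.218 CPM in DKO varied little between mice, while the SKO mean of 0.209 ± 0.265 CPM rested on 14 counts. Its log2 fold change was 3.79 (SE 0.88, interval 1.82 to 5.75), and 5.43 without SKO replicate 2 and 3.19 without SKO replicate 3. Per length the pair summed to 2.08 ± 0.235 RPKM in DKO and 0.107 ± 0.149 RPKM in SKO.

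Slc38a2, a glutamine and alanine transporter gene (chromosome 15, 96687392 to 96699728), was higher in DKO with a wide spread between DKO mice. It had 19.1, 8.27 and 6.48 CPM in the DKO libraries, against 0.886, 0.415 and 0.411 CPM in the SKO libraries. The highest library in each group was replicate 1, and the groups did not overlap. The log2 fold change was 4.28 (SE 0.56, interval 3.05 to 5.51), and 3.67 without DKO replicate 1. Its relative and neighbour on the chromosome, Slc38a1 (chromosome 15, 96571418 to 96643438), had 3.08, 3.48 and 3.34 CPM in the DKO libraries, against 0.886, 1.89 and 0.123 CPM in the SKO libraries. The groups did not overlap, but the SKO libraries ranged over 3 to 41 counts, and the gene did not pass the test over all genes. Its log2 fold change was 1.78 (SE 0.72, interval 0.17 to 3.38, edgeR adjusted p = 0.101, unadjusted p = 0.0334). Without SKO replicate 2 it was 2.68 with an adjusted p of 0.0435 (edgeR), and 1.24 with an adjusted p of 0.158 without SKO replicate 3.

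Slc6a9, the glycine transporter gene (chromosome 4, 117835258 to 117869305), was the most abundant of the 9 in both groups. It had 314, 530 and 369 CPM in the DKO libraries, against 395, 415 and 419 CPM in the SKO libraries. The DKO libraries lay on both sides of the narrow SKO range. The log2 fold change was -0.02 (SE 0.20), with an interval from -0.46 to 0.42, that is from 0.726-fold to 1.34-fold. Ccdc24 overlaps the gene on the opposite strand and had 121 CPM in DKO and 107 CPM in SKO. The sources used here do not say whether reads were assigned by strand, so the levels of both are uncertain.

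Slc7a5, the large neutral amino acid exchanger gene (chromosome 8, 121881146 to 121907686), had 59.7, 104 and 109 CPM in the DKO libraries, against 66.1, 70.5 and 76.9 CPM in the SKO libraries. DKO replicate 1 lay below the SKO range and DKO replicates 2 and 3 above it. The log2 fold change was 0.36 (SE 0.23, interval -0.16 to 0.87, edgeR adjusted p = 0.291), and 0.58 without DKO replicate 1 (adjusted p = 0.0268). Its obligate partner chain gene Slc3a2 (chromosome 19, 8706882 to 8723369) had 49.1, 80.7 and 71.6 CPM in the DKO libraries, against 111, 147 and 159 CPM in the SKO libraries. All DKO libraries were below all SKO libraries, and Slc3a2 fell by 1.05 on the log2 scale (SE 0.22, edgeR adjusted p = 0.00719). Per length, Slc7a5 had 25.6 ± 7.69 RPKM and Slc3a2 22.7 ± 5.51 RPKM in DKO, and Slc7a5 had 20 ± 1.53 RPKM and Slc3a2 46.9 ± 8.39 RPKM in SKO (SD, n = 3 each). The difference between the changes of the 2 genes was not tested.

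**Figure D2:**
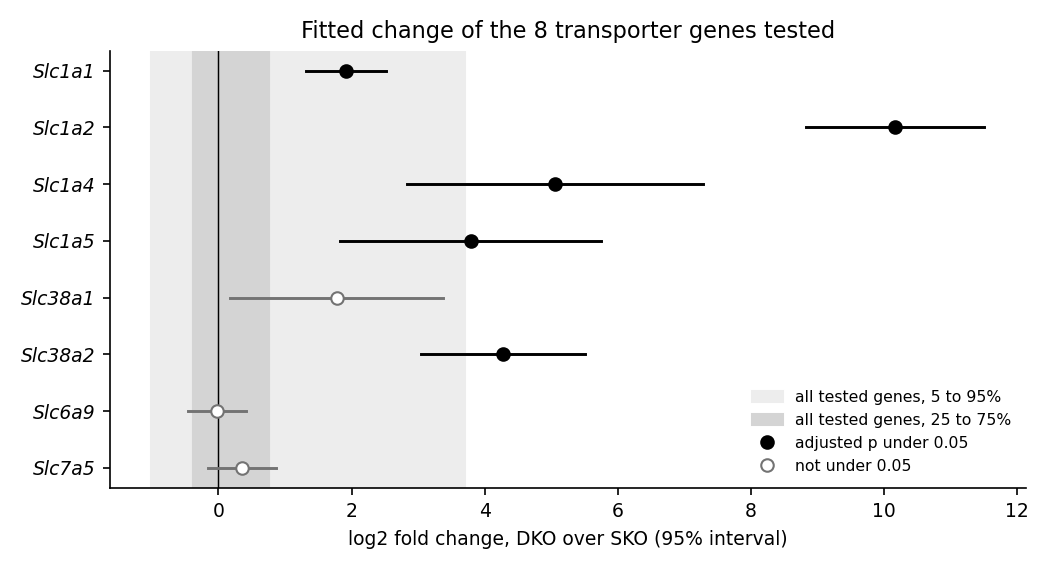
Fitted log2 fold change of DKO over SKO for the 8 tested genes, with 95% intervals, filled points for genes with an adjusted p under 0.05 and grey bands for the middle of all tested genes. The interval of Slc6a9 runs from -0.46 to 0.42, while Slc1a2 lies at 10.17 on the basis of 2 SKO counts.

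The order of the levels differed between the groups only below the top 3. Per length, Slc6a9 (124 ± 34.4 RPKM in DKO and 125 ± 3.84 RPKM in SKO), Slc7a5 and Slc1a1 (7.84 ± 0.684 RPKM in DKO and 2.07 ± 0.736 RPKM in SKO) came first in both, and none of their ranges over the libraries overlapped. In DKO, Slc1a2 (3.21 ± 1.36 RPKM) and Slc38a2 (2.4 ± 1.45 RPKM) came next with overlapping ranges, then Slc1a5 and Slc1a4 at 1.05 ± 0.079 and 1.04 ± 0.236 RPKM, also overlapping. Slc38a1 followed with 0.228 ± 0.0141 RPKM, above Slc1a3 with 0.0408 ± 0.0496 RPKM. In SKO the 6 genes below Slc1a1 all had less than 0.2 RPKM, from 0.121 ± 0.0581 RPKM for Slc38a2 down to 0.00225 ± 0.00195 RPKM for Slc1a2, and each overlapped the next. Slc1a2 ranked 4 of 9 in DKO and 9 of 9 in SKO. In DKO 98.8% of all genes in the table lay below Slc6a9 and 64.1% below Slc1a2, and in SKO 98.5% lay below Slc6a9 and 23.6% below Slc1a2.

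**Figure D3:**
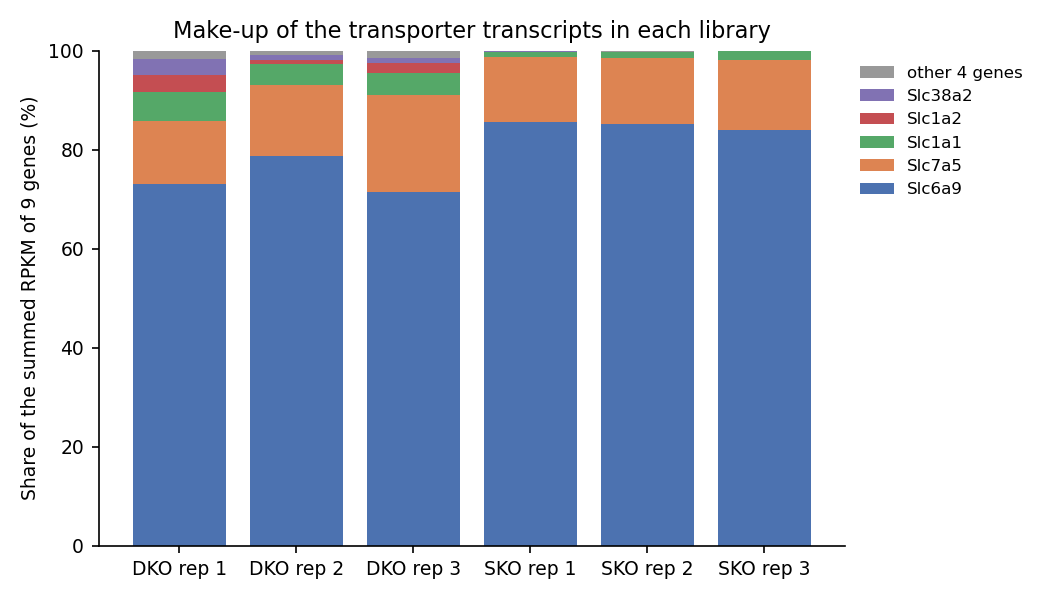
Share of each gene in the summed RPKM of the 9 genes, one bar per library, with the 3 DKO libraries left of the 3 SKO libraries. Slc6a9 holds 71.5 to 78.8% in DKO and 83.9 to 85.6% in SKO, and Slc1a2 is visible only in the DKO bars.

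The summed level of the 9 genes was 131, 206 and 158 RPKM in the DKO libraries, against 141, 149 and 153 RPKM in the SKO libraries, and the groups overlapped. Within that sum Slc6a9 made up 74.4 ± 3.85% in DKO and 84.9 ± 0.894% in SKO. Slc1a1 made up 4.87 ± 0.858% in DKO and 1.4 ± 0.447% in SKO, and Slc1a2 2.14 ± 1.3% in DKO and 0.00153 ± 0.00133% in SKO (SD, n = 3 each). The whole Slc1 family summed to 13.2 ± 1.12 RPKM in DKO and 2.2 ± 0.683 RPKM in SKO. These genes stayed well below Slc6a9 in level in both groups.

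Over the 6 libraries, the tested genes outside the set with the pattern most like Slc1a2 in log2 CPM were the homeobox genes Hoxd8 and Hoxd13 and the transcription factor gene Ebf3, with Pearson r of 0.9994, 0.9988 and 0.9987. In all 1172 genes had an r over 0.95 with Slc1a2, and the 6 points form 2 groups by genotype. The genes most like Slc6a9 were the folate transporter gene Slc19a1, Ppp1r15a and Mslnl, with r of 0.9960, 0.9743 and 0.9743, and 12 genes had an r over 0.95. These values describe 6 libraries only.

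Among 47 other plasma membrane and lysosomal amino acid transporter genes, changes went both ways. Of 29 tested, 6 were higher in DKO and 6 lower (edgeR, adjusted p under 0.05), and the median log2 fold change was -0.20, against 17.3% higher, 7.41% lower and a median of 0.04 over all tested genes. The count of lower genes was 3 without DKO replicate 1 and 3, 2 and 2 without SKO replicates 1, 2 and 3. The other 18 were below the filter.

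The rises included Slc43a1, a large neutral amino acid carrier gene, at 29.8 ± 9.04 CPM in DKO and 3.57 ± 1.15 CPM in SKO (log2 fold change 3.07, SE 0.34, adjusted p = 0.000154 with edgeR). Slc6a5, the second glycine transporter gene and known from glycinergic neurons, had 7.23, 7.23 and 2.14 CPM in the DKO libraries, against 0.322, 0.23 and 0.288 CPM in the SKO libraries. It rose by 4.27 on the log2 scale (SE 0.61), yet at 5.53 ± 2.94 CPM it stayed far below Slc6a9. Slc36a4, an amino acid carrier gene, had 43, 42 and 32 counts in the DKO libraries, against 2, 0 and 0 in the SKO libraries, a ratio of 64.2 (95% interval 17.4 to 536, counting error only). Both SKO counts came from SKO replicate 1. Slc6a15, a neutral amino acid transporter gene, rose by 1.02 and the arginine and lysine carrier gene Slc7a1 by 0.73, a call lost without SKO replicate 2 or 3 (edgeR adjusted p = 0.0715 and 0.0915). Slc36a1 rose by 0.84 (adjusted p = 0.0399), a call lost without any 1 library other than DKO replicate 1 (edgeR adjusted p up to 0.155).

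The falls were led by Slc7a9, the light chain gene of the cystine carrier, at 5, 0 and 3 counts in the DKO libraries, against 75, 43 and 62 in the SKO libraries (log2 fold change -4.24, SE 0.83, edgeR adjusted p = 0.00463), and -5.23 without DKO replicate 1. Slc7a9 passed the filter through its SKO libraries alone. Besides Slc3a2, the taurine transporter gene Slc6a6 fell to 204 ± 67.6 CPM in DKO, against 357 ± 32.5 CPM in SKO (log2 fold change -0.81). Slc38a8, Slc6a20b and the lysosomal histidine and peptide carrier gene Slc15a4 fell by 0.95, 0.78 and 0.60. Reads of Slc6a20b can be shared with its close copy Slc6a20a. The call of Slc38a8 was lost without SKO replicate 2 or 3 (edgeR adjusted p up to 0.0871), and that of Slc6a6 without any 1 library other than DKO replicate 3 (up to 0.0941). Those of Slc6a20b and Slc15a4 were lost without any 1 library other than DKO replicate 2 (up to 0.113 and 0.14) and with library totals alone (0.101 and 0.137). The 3 most abundant of the 47 in SKO per length were Slc7a11, the cystine and glutamate exchanger gene, Slc6a6 and Slc7a2. Slc7a11 had 83.3 ± 7.9 RPKM in DKO and 65.8 ± 6.27 RPKM in SKO and was not called (log2 fold change 0.34, SE 0.16, edgeR adjusted p = 0.139), and Slc7a2, a cationic amino acid carrier gene, had 63.6 ± 7.04 RPKM in DKO and 47.5 ± 9.15 RPKM in SKO (0.42, interval 0.01 to 0.83, edgeR adjusted p = 0.124). With library totals alone both were called, at 0.50 and 0.58 (edgeR adjusted p = 0.0242 and 0.0334).

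**Figure D4:**
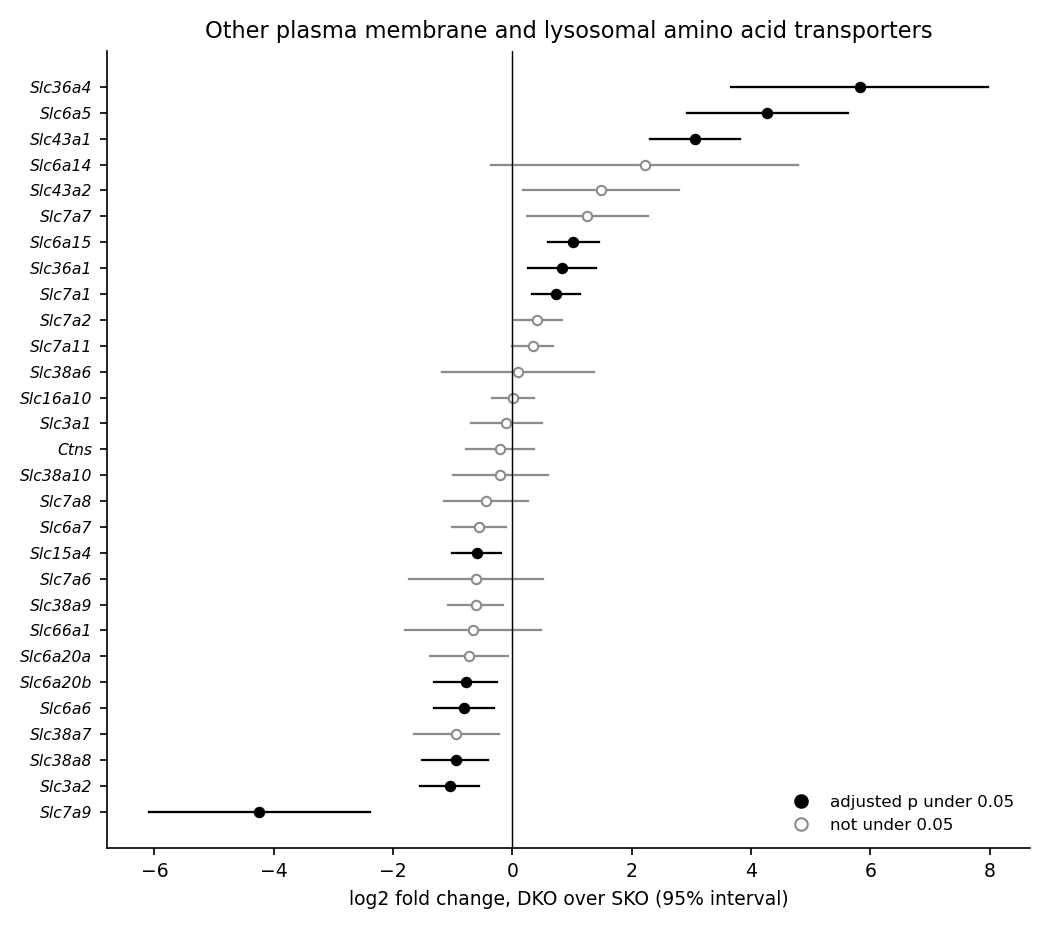
Fitted log2 fold change of DKO over SKO with 95% intervals for the 29 tested genes of the wider transporter list, filled where the adjusted p was under 0.05. Slc36a4 at 5.82 and Slc7a9 at -4.24 mark the ends, and 6 filled points lie on each side of 0.

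Of 18 tested enzymes that handle glutamate and glutamine inside the cell 7 were higher and 0 lower, with a median log2 fold change of 0.59. Over all tested genes 17.3% were higher and 7.41% lower, with a median of 0.04. Gad2, which makes GABA from glutamate, reached 38.1 ± 15.5 CPM in DKO, against 4.84 ± 1.17 CPM in SKO (log2 fold change 2.98). Asns, the asparagine synthetase gene, reached 12.6 ± 2.91 CPM in DKO, against 1.72 ± 0.381 CPM in SKO (2.87), and Gclc, which starts glutathione synthesis from glutamate and cysteine, reached 85.5 ± 20.1 CPM in DKO, against 22.4 ± 5.41 CPM in SKO (1.93). Glul, which makes glutamine from glutamate and was picked after its values were seen, had 73, 46.9 and 27 CPM in the DKO libraries, against 10.2, 8.84 and 9.66 CPM in the SKO libraries. It rose by 2.35 on the log2 scale (SE 0.34, edgeR adjusted p = 0.000764).

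Of 13 tested glycine and serine enzymes 2 were higher and 0 lower, with a median of 0.17, and the share of higher calls was near the 17.3% of all tested genes. Psat1, a serine synthesis gene, had 115, 183 and 282 counts in the DKO libraries, against 0, 1 and 1 in the SKO libraries, a ratio of 318 (95% interval 87.7 to 2634, counting error only). Gldc, of the glycine cleavage system, had 7.84 ± 0.0831 CPM in DKO and 0.784 ± 0.582 CPM in SKO (log2 fold change 3.32, and 3.92 without SKO replicate 3). Psat1 and Gldc lie below 1 CPM in SKO, where 45.9% of all tested genes were called higher, and both needed their DKO libraries to pass the filter. In both enzyme lists 0 genes were called lower with edgeR, DESeq2 or limma voom, and 0 were lower at an unadjusted edgeR p under 0.05.

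Of 14 tested vesicular and mitochondrial carriers 4 were higher and 0 lower, with a median of 0.17, against 17.3% higher and 7.41% lower over all tested genes. The mitochondrial serine carrier gene Sfxn1 rose by 2.60, its relative Sfxn3 by 4.75 over 4 SKO counts (3.49 without DKO replicate 3), and Slc17a8, a vesicular glutamate transporter gene, by 1.78. Pdzd7 overlaps Sfxn3 on the opposite strand and held 480 counts over the 6 libraries, against 122 for Sfxn3, so the level of Sfxn3 is uncertain. Sfxn3 also lies below 1 CPM in SKO and needed its DKO libraries to pass the filter. At an unadjusted edgeR p under 0.05, 1 was lower, and DESeq2 called 1 lower and limma voom 0. Of the 5 Slc6 genes for GABA, betaine and creatine 2 were higher and 0 lower, against the same shares of all tested genes: the creatine transporter gene Slc6a8 rose by 5.0 and the betaine transporter gene Slc6a12 by 2.21. At an unadjusted edgeR p under 0.05, 0 were lower, and DESeq2 and limma voom called 0 lower. Slc6a8 had 13.7, 2.91 and 2.76 CPM in the DKO libraries, against 0.443, 0.138 and 0 CPM in the SKO libraries, and its value was 3.82 when DKO replicate 1 was left out, 6.46 with SKO replicate 1 left out and 4.4 with SKO replicate 3 left out. The call of Slc6a12 was lost without DKO replicate 1 or 3 or SKO replicate 2 or 3, with adjusted p up to 0.0875 (edgeR).

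Of 25 tested amino acid sensing genes 3 were higher and 3 lower, with a median of -0.34, against 17.3% higher and 7.41% lower over all tested genes. Atf4, the transcription factor gene of the amino acid response, had 160, 219 and 161 CPM in the DKO libraries, against 345, 350 and 376 CPM in the SKO libraries, and fell by 0.99 on the log2 scale (SE 0.17, edgeR adjusted p = 0.00257). Mtor, the growth kinase gene, fell by 1.12, and Rragb, one of the Rag GTPase genes that bring that kinase to the lysosome, rose by 4.36 (SE 0.55). Rragb lies below 1 CPM in SKO, where 45.9% of all tested genes were called higher, and needed its DKO libraries to pass the filter.

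**Figure D5:**
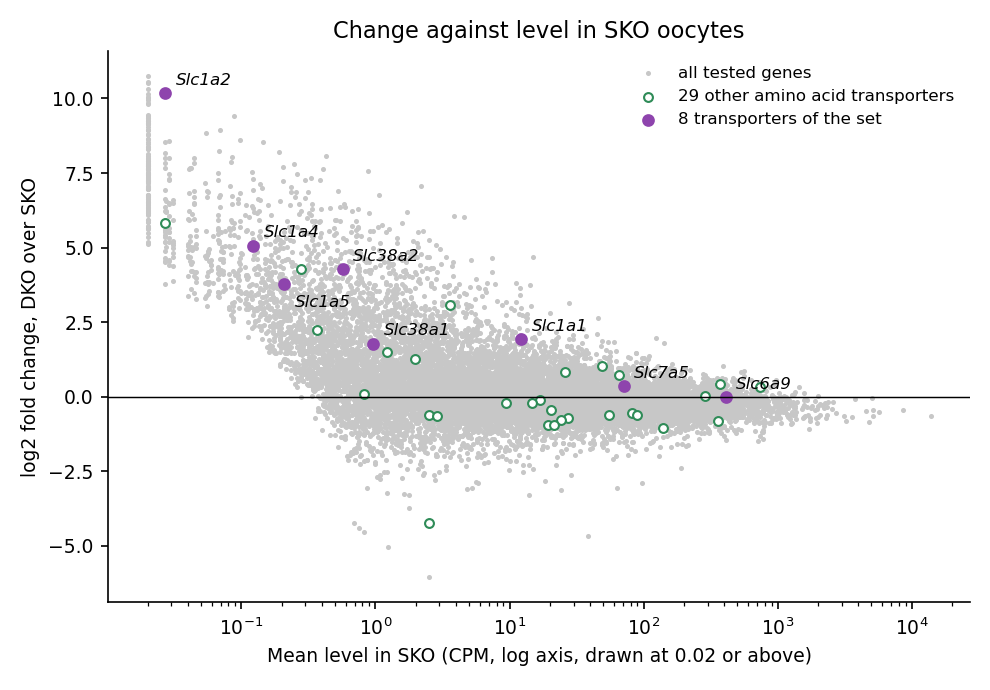
Log2 fold change of DKO over SKO against the mean level in SKO (CPM, log axis, lower levels drawn at 0.02) for all 14845 tested genes in grey, the 29 other amino acid transporters as open circles and the 8 tested genes of the set in purple. Slc1a2 lies at 10.17 at the left edge among genes close to silent in SKO, and Slc6a9 lies at -0.02 near 410 CPM.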

How the data were processed

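RNA-seq libraries of 6 GV oocyte pools, 3 DKO and 3 SKO, were compared. The deposited values are unnormalized read counts for each Entrez gene, given by the authors together with each gene's length in bases. Per the submitters' processing notes, STAR 2.5.0a was used, with GRCm38 and mm10 as builds. For the counter, annotation, strand setting and multiply aligned reads, the answer was not given in the sources used here. RNA was amplified, per the labels' protocols, so counting intervals cover counting error only.

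Symbols and coordinates came from RefSeq (GRCm38.p6), and 24387 of 24421 identifiers matched. The 34 without a match took up to 0.087% of a library's counts. Genes were filtered with filterByExpr (minimum count 10, minimum total 15), scaled with TMM and tested with the two-sided quasi-likelihood test of edgeR 4.0.16 in R 4.3.3, with Benjamini-Hochberg adjustment over all 14845 genes, and called at an adjusted p under 0.05. Standard errors were taken from the F statistic. CPM used TMM-scaled library sizes, and RPKM divided CPM by the deposited gene length. DESeq2 1.42.0 and limma 3.58.1 were alternatives, besides other scalings, filters, a replicate block and leaving out each library. Log2 CPM for correlations used a prior count of 2. The code was tested on simulated counts.

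The members and lists were chosen with earlier results of these data known. Named genes were the 9 members, Slc3a2, Rnf2 and Ring1, up to 6 called transporters of the wider list in each direction by adjusted p with its 3 most abundant, up to 3 called genes of each pathway list, the 3 most abundant of each marker list, and the 3 genes most correlated with the member of the largest change and with the most abundant member, passing over clone names. Of 202 list entries, 2 were not found. Some genes that the rule names are not reported here. Ring1, null in both groups, was below the filter.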

Additional observations from a re-analysis of the deposited data

How the results depend on the processing

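Of the 9 transporters, 6 were called higher with the replicate block, without DKO replicate 1 or without SKO replicate 2, 5 under the rest of the 13 alternatives, and 0 were called lower under any of them. For the named genes, 596 of 648 alternative values stayed on the same side of the threshold, 44 lost the call, 8 gained it and 0 calls reversed. The sign of a gene that was not called could change, as for Slc6a9, which ranged from -0.27 to 0.14. Over all genes, 1100 were called lower, 596 with library totals alone and 434 to 1501 when a library was left out. Library totals alone moved the median of all genes to 0.20. Higher calls made up a larger share there, at 2905 higher. Of the other transporters, 10 were called higher with no filter on low counts, where 43 genes were tested, and 2 to 6 lower when a library was left out. With DESeq2, 1 vesicular or mitochondrial carrier was called lower, and 0 to 1 when a library was left out. Of the Slc6 genes for GABA, betaine and creatine, 1 to 2 were called higher when a library was left out. The alternatives for the carrier, Slc6, enzyme and sensing lists were chosen after seeing the data.

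The replicate numbers shared by the labels did not meet the condition for pairing: deviations from the group means correlated at 0.14, 0.08 and 0.05 for numbers 1, 2 and 3, although each library correlated best with its own number. The replicate block called 2651 genes higher and 1364 lower, and moved Slc38a1 to 2.18 with an adjusted p of 0.0397 (edgeR). With under 3 counts in a library, as for Slc1a2 in every SKO library and Slc1a4 in SKO replicates 1 and 3, depth limits the size of a fold.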
